A study of Homo sapiens with 14 samples.

Results

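The genes described here are 36 genes of the G1/S transition and of DNA replication, followed across 14 RNA sequencing libraries of human MGE-like progenitor cells in which CTNNB1, the gene of beta-catenin, was knocked out or overexpressed. The 36 genes were given as a fixed list of symbols, not by a threshold on their levels. The list was chosen with earlier results of these data known. All 36 matched 1 identifier each among the 58051 genes of the deposited table, and all 36 passed the filter on low values, as did 17102 genes in all. The lowest value behind any member was 23 reads in 1 library, for CCNE2.

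The MGE, or medial ganglionic eminence, is a ventral region of the embryonic forebrain that makes inhibitory interneurons. All libraries come from the embryonic stem cell line H9, differentiated for 25 days: inhibitors of TGF-beta and BMP signalling (SB431542 at 2 µM, LDN193189 at 200 nM) until day 6, then SHH at 250 ng/mL with purmorphamine at 0.3 µM from day 10 to day 17, then neurospheres in suspension. The 4 groups are the CTNNB1 knockout (KO, n = 5), inducible CTNNB1 overexpression with doxycycline at 0.1 µg/mL from day 17 onward (OE with Dox, n = 3), the same inducible line without doxycycline (OE without Dox, n = 3), and wild type (WT, n = 3). The labels state neither how the knockout was made, nor the form of CTNNB1 overexpressed, nor whether a line is 1 clone, nor whether replicates are separate differentiations, so p-values measure only the spread between these libraries. Doxycycline was given to no WT library, and the effects of the drug and of the transgene cannot be told apart.

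Before a cell copies its DNA, the MCM helicase is loaded onto origins in G1, and cyclin E with its kinase CDK2 drives entry into S phase. The retinoblastoma protein holds E2F transcription factors in check until then, and released E2F turns on many of the genes needed for replication: helicase subunits, polymerases, the sliding clamp, enzymes of nucleotide supply, and the histone and DNA methylation machinery that restores chromatin behind the fork. The list holds the 6 MCM subunits MCM2 to MCM7, the loading genes CDC6 and GMNN, the fork genes CDC45, GINS2 and TIPIN, and the polymerase, clamp and loader genes POLA1, PRIM1, POLD3, PCNA, RFC2, DSCC1 and FEN1. It also holds TYMS, RRM1 and RRM2 of nucleotide supply, the repair genes UNG, EXO1, BLM and RAD51AP1, the chromatin genes UHRF1, HELLS, CHAF1B, NASP, SLBP, CDCA7 and WDR76, and CCNE1, CCNE2, E2F8 and DTL. In neural progenitors these transcripts mark cycling cells, and they fall away as cells leave the cycle to become neurons. In bulk RNA, fewer cycling cells and less of the transcript per cycling cell cannot be told apart.

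Values below are normalized counts, that is gene reads divided by the authors' size factor for each library, in which 1 read is worth 0.866 to 0.947. Libraries held 5233270 to 5639725 reads in genes. Folds are log2 folds of normalized counts plus 1, with their standard error (SE), and a gene is called where limma's moderated test gave a Benjamini-Hochberg adjusted p under 0.05 over 17102 genes. CTNNB1 itself stood at 2090 to 2779 in KO, 23861 to 31290 in OE with Dox, 3084 to 3633 in OE without Dox and 3248 to 4393 in WT, so transcript of the gene remained in KO. NKX2-1, a transcription factor of the MGE, was present in every library, at 2387 to 3475 in KO, 274 to 910.5 in OE with Dox, 1378 to 2394 in OE without Dox and 373 to 664 in WT. The OE with Dox and WT libraries are thus the low ones in this marker. SOX2, a neural progenitor factor, was at 2281 to 3352 in all 14, and the pluripotency genes POU5F1 and NANOG did not exceed 3 reads in any library.

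The 36 genes took 0.230% to 0.474% of the gene reads of a library. Their share was 0.347% ± 0.071 in KO (SD, n = 5), 0.291% ± 0.057 in OE with Dox, 0.370% ± 0.049 in OE without Dox and 0.416% ± 0.070 in WT (SD, n = 3 each). Per kilobase of exon, PCNA, the sliding clamp of the polymerases, had the highest mean over the 14 libraries at 844 normalized counts per kb, followed by the helicase subunits MCM7 at 399 and MCM3 at 281. E2F8, CCNE2 and TIPIN had the lowest means, at 12.7, 12.8 and 18.4 per kb.

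Libraries of 1 group differed widely in these genes, and the ranges of the groups overlapped. Each member was centred on its mean of 14 libraries on the log2 scale, and the median over the 36 members gave the position of a library. KO libraries lay at -0.62, -0.12, 0.22, 0.21 and 0.03, OE with Dox at -0.17, -0.50 and 0.02, OE without Dox at -0.05, -0.03 and 0.28, and WT at 0.01, 0.36 and 0.40. KO replicate 1 and OE with Dox replicate 2 stand apart: KO replicate 1 was the lowest KO library for 32 of 36 members, with TIPIN, RAD51AP1, SLBP and E2F8 as the exceptions, and OE with Dox replicate 2 was the lowest of its group for 33 of 36, with RRM2, UHRF1 and CCNE1 as the exceptions. WT replicate 1 was likewise the lowest WT library for 32 of 36. Counts of called members below are therefore given also without the libraries that move them.

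**Figure D1:**
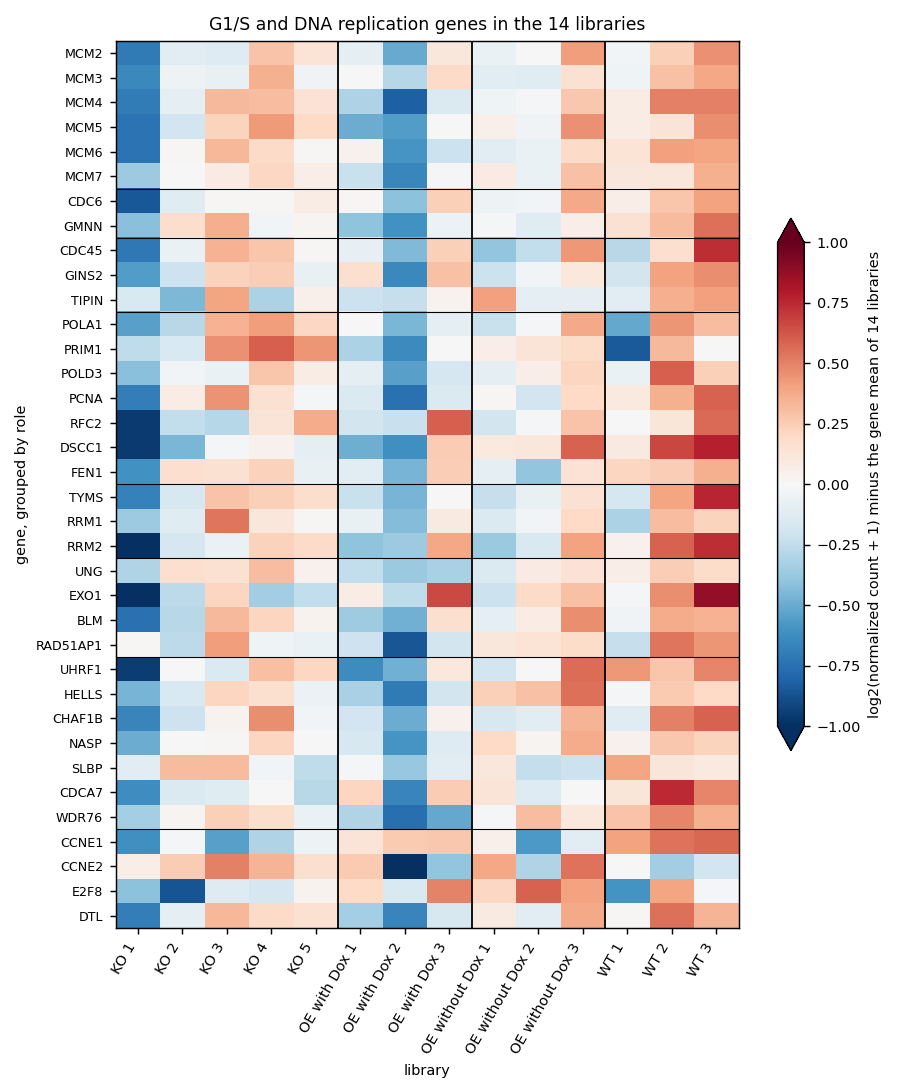
Colours give log2 of the normalized count plus 1 for each of the 36 genes (rows, grouped by role) in each library (columns), minus the mean of that gene over the 14 libraries; black lines part groups and roles. Blue columns at KO 1 and OE with Dox 2 run through nearly all roles, and the rows of CCNE1, CCNE2, E2F8, TIPIN and SLBP depart from the pattern of the others.

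**Figure D2:**
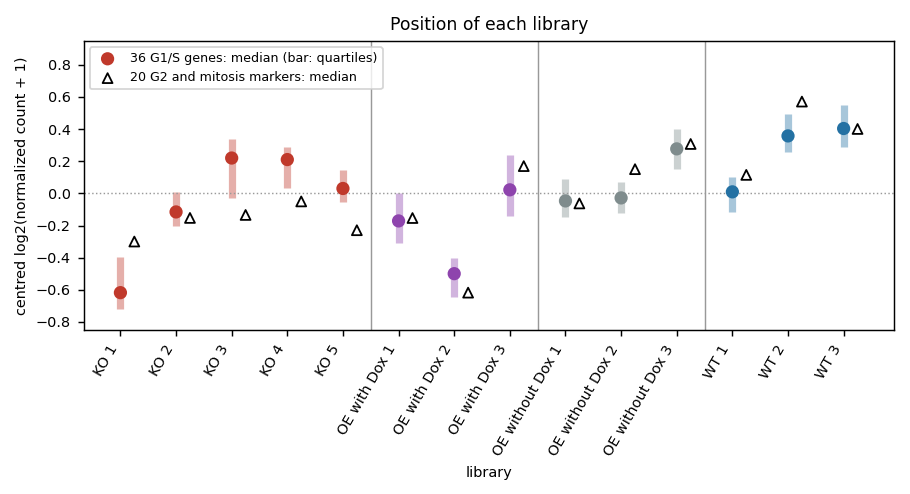
Filled points give the median of the 36 genes in each library on the centred log2 scale, bars the quartiles over the genes, and open triangles the median of 20 markers of G2 and mitosis. KO 1 lies at -0.62 and OE with Dox 2 at -0.50, while WT 3 lies highest at 0.40, and the ranges of the 4 groups overlap.

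In KO against WT, 34 of the 36 genes had a log2 fold below 0, with a median of -0.31, where the median over all genes tested was -0.02. Only 3 of them passed the test, all lower in KO: CCNE1, DSCC1 and CDCA7. Of all genes tested, 7.15% were lower in KO and 6.64% higher, so the members' share of calls is near that of the table as a whole. The 2 members with a fold above 0 were CCNE2 at 0.44 (SE 0.28) and PRIM1, a primase subunit, at 0.39 (SE 0.25), and neither passed. Every KO library lay below every WT library for 4 of the 36, against 9.53% of all genes tested. Without KO replicate 1 the median was -0.18 and the number called was 1, with 31 of 36 folds below 0, and the number called was also 1 without WT replicate 2 or without WT replicate 3.

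CCNE1 encodes cyclin E1, the activating partner of CDK2 at the G1/S boundary, and lies on chromosome 19 from 29811991 to 29824312 (hg38, plus strand). It had normalized counts of 36.02, 54.8, 37.8, 44.9 and 53.7 in KO libraries, against 73.8, 81.3 and 83.2 in WT libraries. Every KO library lay below every WT library. The level averaged 45.4 ± 8.7 in KO (SD, n = 5) and 79.4 ± 4.9 in WT (SD, n = 3), a log2 fold of -0.81 (SE 0.20, adjusted p = 0.00798 by limma). The call was kept without any 1 library and under every other setting tried, with adjusted p between 0.00217 and 0.0428.

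DSCC1, a subunit of a clamp loader that acts in sister chromatid cohesion, had 44.3, 63.3, 86.0, 89.8 and 81.4 normalized counts in KO, against 92.8, 139.4 and 149.9 in WT. The groups did not overlap, but the lowest WT library was close to the highest KO library. The log2 fold was -0.81 (SE 0.25, adjusted p = 0.0394). CDCA7, which recruits the chromatin remodeller HELLS to DNA, had 200.4, 279.5, 283.4, 308.1 and 254.1 in KO, against 336.1, 520.2 and 433.1 in WT. All 5 KO libraries were below the 3 WT libraries, and the log2 fold was -0.69 (SE 0.20, adjusted p = 0.0265). Both calls were lost without KO replicate 1, without WT replicate 2 and without WT replicate 3, with adjusted p up to 0.19 for DSCC1 and 0.148 for CDCA7, and that of DSCC1 also without KO replicate 2. With upper-quartile scaling the call of DSCC1 was lost, and with the replicate number as a block that of CDCA7. The block leaves KO replicates 4 and 5 out of the fold, since no other group has these numbers.

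By role, the median KO folds lay between -0.37 and -0.28. The 6 MCM subunits, which form the replicative helicase, had log2 folds between -0.36 and -0.20 with none called, and without KO replicate 1 between -0.19 and -0.06. CDC6, which loads the helicase, and GMNN, which blocks loading once S phase has begun, had a median of -0.37, and CDC45, GINS2 and TIPIN of the active fork a median of -0.30. The 3 genes of nucleotide supply, TYMS, RRM1 and RRM2, had a median of -0.35, and without KO replicate 1 the medians of these 3 roles were -0.23, -0.18 and -0.19. Of the 4 repair genes, EXO1, an exonuclease of mismatch and end repair, had the lowest fold of all members at -0.86 (SE 0.31), but its adjusted p of 0.0776 missed the threshold. Its KO libraries overlapped WT, at 37.9, 86.9, 120.9, 81.8 and 87.7 in KO, against 103.2, 143.9 and 192.3 in WT.

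With doxycycline, 32 of the 36 genes had a log2 fold below 0 in OE with Dox against OE without Dox, with a median of -0.27 where all genes tested had 0.02. The 3 genes called were HELLS, WDR76 and NASP, all lower with Dox. Over all genes tested, 12.9% were lower and 12.8% higher, so 3 of 36 is a smaller share than that of all genes. The 4 members above 0 were CCNE1 at 0.43 (SE 0.22, adjusted p = 0.17), EXO1 at 0.07, RFC2 at 0.03 and MCM3 at 0.00, none of them called. Every library with Dox lay below every library without it for 9 of the 36, against 19.5% of all genes. Samples with the same replicate number deviated together in this pair of groups, and with the number as a block the genes called were 6, all lower: the same 3 with MCM5, DSCC1 and MCM7. Without OE with Dox replicate 2 the median was -0.13, with 24 of 36 below 0, and only HELLS was called, and without KO replicate 1, which enters through the shared spread, 5 were called.

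HELLS is a chromatin remodelling ATPase that supports DNA methylation at replicated repeats, on chromosome 10 from 94545329 to 94613905 (hg38, plus strand). It had 350.9, 268.6 and 386.2 normalized counts in OE with Dox, against 517.6, 538.6 and 643.6 in OE without Dox. The groups did not overlap, at 335.2 ± 60.3 with Dox and 566.6 ± 67.5 without Dox (SD, n = 3 each). The log2 fold was -0.77 (SE 0.18, adjusted p = 0.00324 by limma), and the call was kept under every alternative, with adjusted p between 0.000448 and 0.026.

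WDR76, a WD-repeat protein found at sites of DNA damage, had 102.5, 74.4 and 88.5 in OE with Dox, against 124.4, 156.4 and 136.0 in OE without Dox. The groups did not overlap, with a log2 fold of -0.65 (SE 0.18, adjusted p = 0.0117). NASP, a histone chaperone that keeps a reserve of H3 and H4, had 1713, 1269 and 1748 in OE with Dox, against 2195, 1951 and 2477 in OE without Dox. These did not overlap either, with a log2 fold of -0.49 (SE 0.17, adjusted p = 0.0349). Both calls were lost without OE with Dox replicate 2, that of WDR76 also without OE without Dox replicate 2, and that of NASP also without OE without Dox replicate 1 or 3, with adjusted p up to 0.0649 for WDR76 and 0.183 for NASP.

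The other roles gave no called gene with Dox. All 7 genes of chromatin, histones and methylation had folds below 0, with a median of -0.46, and SLBP, which binds the stem-loop of histone messenger RNAs, had the one closest to 0 at -0.06. The MCM subunits ran from -0.51 for MCM5 to 0.00 for MCM3. The polymerase, clamp and loader genes had a median of -0.34, the nucleotide genes -0.15 and the fork genes CDC45, GINS2 and TIPIN -0.03. Without OE with Dox replicate 2 these 3 medians were -0.15, 0.00026 and 0.15, and those of the chromatin genes and the MCM subunits were -0.34 and -0.16. Of repair, RAD51AP1, a DNA repair protein, had the lowest fold at -0.56 (SE 0.22, adjusted p = 0.0656). CDCA7, called in KO, was at -0.06 (SE 0.22) with Dox.

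**Figure D3:**
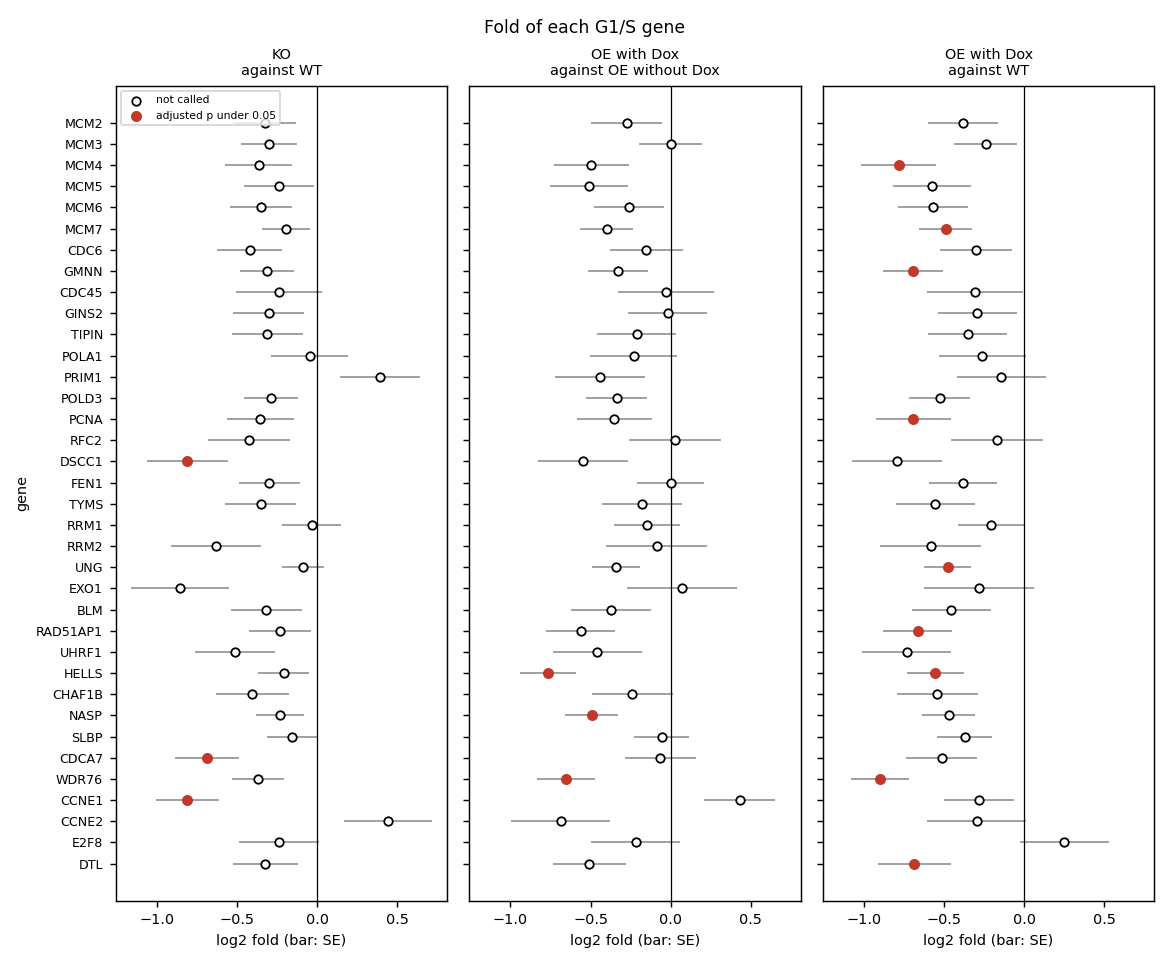
Points give the log2 fold of each gene and bars its SE, in 3 panels, for KO over WT, for Dox over no Dox in the OE line, and for OE with Dox over WT; filled red points passed an adjusted p of 0.05. Folds lie below 0 for 34, 32 and 35 of the 36 genes, and 3, 3 and 9 are called, all lower.

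OE with Dox against WT gave the largest separation, although it shares its OE with Dox libraries with the comparison above and its WT libraries with KO against WT. Here 35 of 36 folds were below 0, E2F8 being the exception at 0.25 (SE 0.28), with a median of -0.47 against 0.01 over all genes. Of the members 9 were called, all lower in OE with Dox than in WT, where 10.1% of all genes were lower and 10.4% higher. They were WDR76, GMNN, MCM4, UNG, HELLS, RAD51AP1, DTL, MCM7 and PCNA. The number rested on single libraries: it was 1 without OE with Dox replicate 2 or without WT replicate 3, 2 without WT replicate 2, and 15 without KO replicate 1. WDR76 alone was called in each of these fits. Calls also ended under other methods: MCM7 with edgeR or with only the 2 groups, RAD51AP1 with only the 2 groups, PCNA with TMM scaling, and PCNA, MCM4 and UNG with no filter on low values. These groups differ in the line as well as in doxycycline. Within the OE line, only HELLS and WDR76 of the 9 genes were called. Without doxycycline the line had a median of -0.22 against WT, with 31 of 36 folds below 0. There GMNN was at -0.36, PCNA at -0.34 and MCM4 at -0.29, the rest from -0.25 (WDR76) to -0.09 (MCM7), but HELLS at 0.21. The part of the line in the 9 calls was not tested.

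In that comparison WDR76 had 102.5, 74.4 and 88.5 in OE with Dox, against 154.3, 177.9 and 162.0 in WT, a log2 fold of -0.90 (SE 0.18, adjusted p = 0.00121 by limma). The lowest WT library exceeded the highest library with Dox by more than the range within either group. MCM4, a helicase subunit, had 937.3, 658.9 and 1053 in OE with Dox, against 1221, 1651 and 1644 in WT (log2 fold -0.78, SE 0.23, adjusted p = 0.0242). GMNN had 211.5, 183.1 and 268.2 in OE with Dox, against 310.5, 348.6 and 408.9 in WT (log2 fold -0.69, SE 0.19, adjusted p = 0.0115). Neither gene overlapped between the groups.

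UNG, which removes uracil from DNA, had 396.1, 361.5 and 374.2 in OE with Dox, against 490.4, 556.8 and 531.9 in WT (log2 fold -0.48, SE 0.15, adjusted p = 0.026). PCNA had 1041, 685.0 and 1039 in OE with Dox, against 1231, 1474 and 1728 in WT (log2 fold -0.69, SE 0.23, adjusted p = 0.0446). DTL, which targets replication licensing factors for destruction in S phase, had 277.0, 221.2 and 313.4 in OE with Dox, against 353.1, 513.9 and 443.5 in WT (log2 fold -0.69, SE 0.23, adjusted p = 0.0391). For these 3 genes every library with Dox lay below every WT library. MCM7, with 1670, 1240 and 1936 in OE with Dox against 2115, 2109 and 2493 in WT, had a log2 fold of -0.49 (SE 0.17, adjusted p = 0.0439). HELLS was lower too (log2 fold -0.56, SE 0.18, adjusted p = 0.032), and so was RAD51AP1 (log2 fold -0.66, SE 0.22, adjusted p = 0.0353), whose groups overlapped. Every library with Dox lay below every WT library for 15 of the 36 members, against 15.4% of all genes tested.

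The other comparisons called no member. In OE without Dox against WT, 0 of 36 were called by limma, 1 had an unadjusted p under 0.05, edgeR called 0 and DESeq2 called 1, where 3.43% of all genes were higher and 2.32% lower. That gene was CCNE1, at 57.6, 37.0 and 51.7 in OE without Dox, against 73.8, 81.3 and 83.2 in WT, with a log2 fold of -0.71 (SE 0.22, adjusted p = 0.0644). The median over the members was -0.22, with 31 of 36 below 0, and without WT replicate 3 or OE without Dox replicate 1 it was -0.13 and -0.14, with 27 and 28 below 0. With all libraries 3 of 36 lay below WT in every library, against 11.4% of all genes. Between KO and OE without Dox, 0 of 36 were called by limma, edgeR or DESeq2, 3 had an unadjusted p under 0.05, and 0.351% of all genes were higher and 1.75% lower. CCNE1 was at -0.10 (SE 0.20) there. The median was -0.10, and without KO replicate 1 it was 0.016, with 17 of 36 below 0. Every KO library lay below every library of OE without Dox for 3 members, DSCC1, HELLS and E2F8, against 4.39% of all genes. E2F8, a repressor of the E2F family, had the lowest fold at -0.71 (SE 0.25, adjusted p = 0.262), with 37.9, 27.4, 46.3, 44.9 and 51.9 in KO, against 58.5, 76.8 and 67.1 in OE without Dox. Its groups did not overlap, although the test was not passed.

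The cyclin E genes were where the Dox effect (OE with Dox against OE without Dox) and the KO effect (KO against WT) differed. CCNE1 was called with a difference of 1.24 on the log2 scale (SE 0.29, adjusted p = 0.00347 by limma), in which the Dox effect was 0.43 and the KO effect -0.81. CCNE2, the gene of cyclin E2, was called in the other direction, with a difference of -1.13 (SE 0.41, adjusted p = 0.0489), from -0.69 with Dox and 0.44 in KO. Across all genes this difference was called higher for 15.1% and lower for 13.6%, so 1 and 1 of 36 members are few. For CCNE1 it rests on WT as the control of KO. The fold of CCNE1 in KO was -0.81 against WT but -0.10 (SE 0.20) against OE without Dox. In OE without Dox against WT, where neither group carries the knockout, CCNE1 was at -0.71 (SE 0.22). CCNE1 kept its call without any 1 library, while CCNE2 lost it in the fits without KO replicates 1 to 5, WT replicate 2 or 3, OE with Dox replicate 2 or 3, and OE without Dox replicate 1 or 3, and also with edgeR, with a filter of 50 or with no robust option.

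The level of CCNE1 was 45.4 ± 8.7 in KO (SD, n = 5), 65.0 ± 3.6 in OE with Dox, 48.8 ± 10.6 in OE without Dox and 79.4 ± 4.9 in WT (SD, n = 3 each), so its order from low to high was KO, OE without Dox, OE with Dox, WT. Its libraries were at 60.9, 66.9 and 67.3 in OE with Dox, against 57.6, 37.0 and 51.7 in OE without Dox, without overlap. Neighbours in this order were not called against each other. CCNE2 had 64.6, 21.4 and 40.6 in OE with Dox, against 70.4, 43.5 and 78.9 in OE without Dox, which overlap. It had 56.35, 64.2, 76.5, 68.3 and 59.95 in KO, against 54.0, 42.0 and 46.8 in WT, which do not. CCNE2 shares exon bases with INTS8, and since no source used here gives the strand setting of the counting, its reads may be in part those of its neighbour. The same holds for MCM7 and AP4M1, DTL and INTS7, GINS2 and GSE1, PRIM1 and NACA, FEN1 and FADS2, TYMS and ENOSF1, CHAF1B and MORC3, and POLD3 and LIPT2-AS1.

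**Figure D4:**
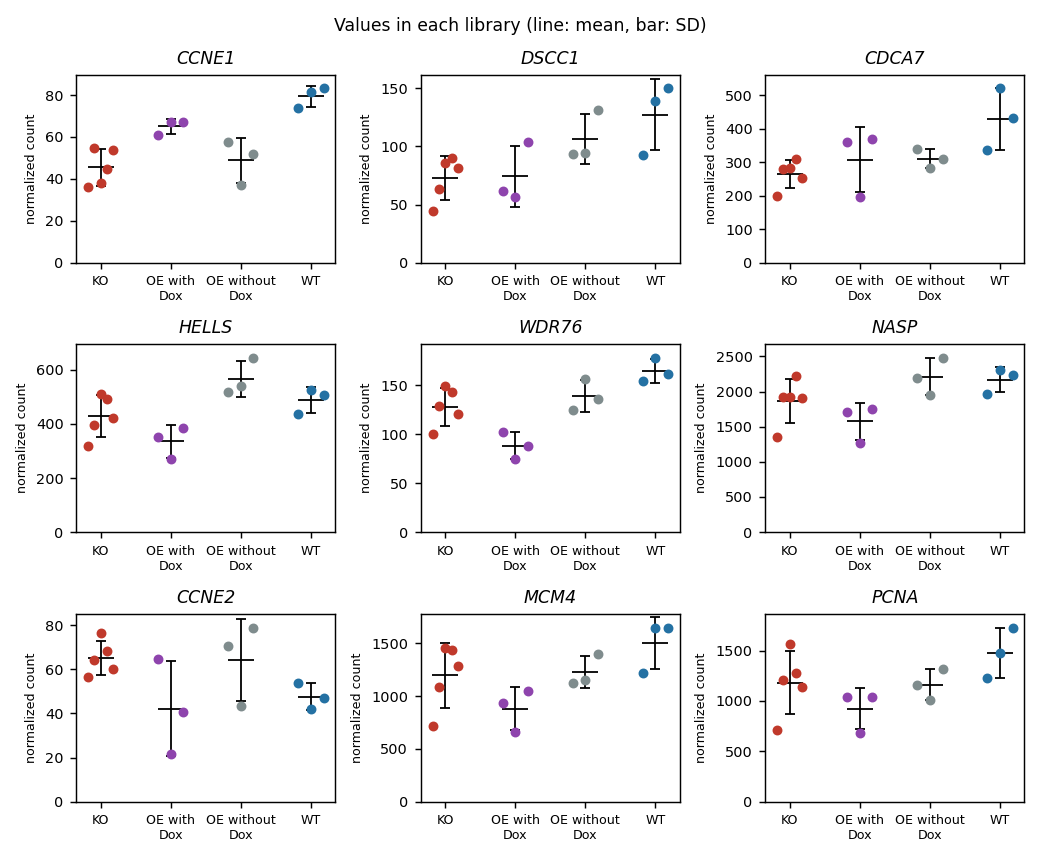
Points give the normalized count in each library by group (KO, OE with Dox, OE without Dox, WT), lines the mean and bars the SD, on axes that start at 0. CCNE1 in KO at 36.02 to 54.8 lies below WT at 73.8 to 83.2, HELLS with Dox at 268.6 to 386.2 lies below OE without Dox at 517.6 to 643.6, and CCNE2 lies higher in KO than in WT.

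Within groups the members moved together. For each gene the deviations from its group mean were taken over the 14 libraries (10 degrees of freedom) and set against the median deviation of the other 35 members, as a description, since the points share libraries and scaling. The median Pearson r was 0.90, and 26 of 36 members had r of at least 0.8. MCM4 was highest at 0.99, with HELLS and CDC6 at 0.96 each. Of the 17066 other genes tested, 1.75% reached 0.8 with the median of the 36. Of 80 other replication genes 37 reached it, with a median r of 0.78. Of 20 G2 and mitosis markers 1 did, with a median r of 0.68, where the median over the 17066 other genes was -0.03. Without KO replicate 1, 21 members reached 0.8.

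Some members did not follow. SLBP was lowest with r of 0.11, followed by CCNE1 at 0.28, TIPIN, which steadies the fork together with its partner timeless, at 0.29, and CCNE2 at 0.41. SLBP stood at 291.9, 393.8, 394.0, 309.9 and 264.9 in KO, at 312.1, 243.5 and 293.1 in OE with Dox, at 342.9, 268.4 and 272.0 in OE without Dox and at 416.5, 344.1 and 337.8 in WT. Its lowest WT value was thus in replicate 3, the WT library in which 19 of the 36 members were highest. RRM1, the large subunit of ribonucleotide reductase and the nucleotide gene with the highest mean per kb, followed the group with values of 831.3, 984.9, 1552, 1155 and 1076 in KO, 1015, 791.8 and 1138 in OE with Dox, 965.7, 1048 and 1226 in OE without Dox, and 859.6, 1321 and 1247 in WT. GINS2, of the helicase cofactor GINS, did so as well, with 264.2, 338.0, 458.2, 462.6 and 370.4 in KO, 436.8, 249.1 and 478.4 in OE with Dox, 336.5, 383.1 and 419.7 in OE without Dox, and 343.6, 515.7 and 539.7 in WT. In these genes KO replicate 1 and OE with Dox replicate 2 were the lowest of their groups.

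**Figure D5:**
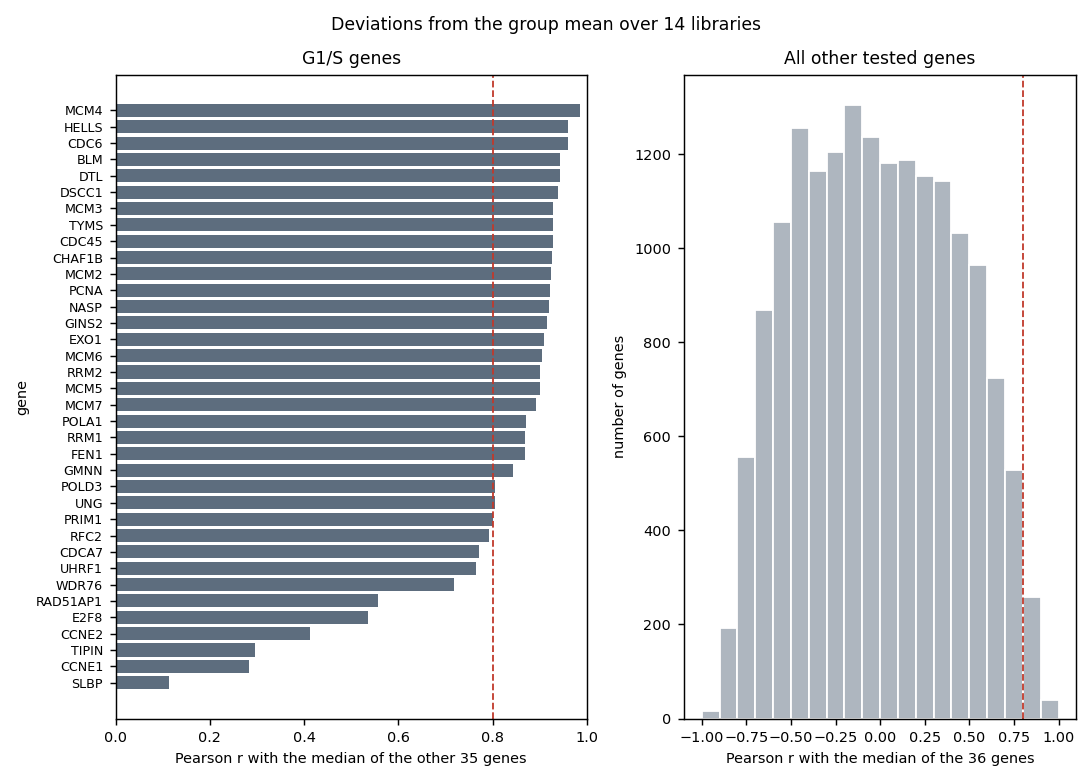
Left, bars give each member's Pearson r with the median of the other 35 members, over deviations from the group mean in 14 libraries; right, the count of all 17066 other tested genes by their r with the median of the 36. The dashed line marks 0.8, reached by 26 members and by 1.75% of the other genes.

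Since most members moved together, their upstream sequences were searched for the motif that E2F proteins bind, and those of 4 members are shown: HELLS and DTL, which followed the others closely, and CCNE1 and SLBP, which did not. The motif was searched as TTTGGCGC, TTTCGCGC, TTTCCCGC or TTTGCCGC on either strand in windows of 250 bases before to 50 after the start of each RefSeq gene (GRCh38.p14). MCM4, DSCC1, MCM5, POLD3, WDR76, E2F8 and CCNE2 were not analysed here. Of the other 29 members, 17 held a match (58.6%), against 3.99% of 27305 genes. By r, 14 of 22 members at 0.8 or more held one and 3 of 7 members below. The 4 members shown split more cleanly than the rest. TIPIN, at r of 0.29, held a match, while BLM, CDC45, CHAF1B, NASP and RRM2, each at 0.90 or more, held none. Whether E2F has a part in the shared movement was not tested. CCAAT on either strand was found in 20 of 29 members (69.0%) and in 39.7% of all genes, and TTTGAA, a core found in many mitotic promoters, in 2 of 29 (6.9%) and in 18.2%. Capitals below mark E2F matches in the 250 bases before the start. HELLS, at chr10:94545538-94545787 on the plus strand, has matches that begin 76 and 8 bases before its RefSeq start. DTL, at chr1:212035498-212035747 on the plus strand, has 1 that begins 8 bases before. For HELLS, DTL and SLBP the RefSeq start differs from that of GENCODE, and these windows overlap the GENCODE gene. CCNE1, at chr19:29811741-29811990 on the plus strand, and SLBP, at chr4:1712320-1712569 on the minus strand, have no match, which says only that these letters are not in this window.
HELLS: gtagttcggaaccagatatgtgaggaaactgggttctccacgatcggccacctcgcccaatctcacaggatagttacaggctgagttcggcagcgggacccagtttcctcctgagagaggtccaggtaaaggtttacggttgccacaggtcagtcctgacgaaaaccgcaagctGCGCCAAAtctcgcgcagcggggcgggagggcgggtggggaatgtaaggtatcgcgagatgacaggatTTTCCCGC
DTL: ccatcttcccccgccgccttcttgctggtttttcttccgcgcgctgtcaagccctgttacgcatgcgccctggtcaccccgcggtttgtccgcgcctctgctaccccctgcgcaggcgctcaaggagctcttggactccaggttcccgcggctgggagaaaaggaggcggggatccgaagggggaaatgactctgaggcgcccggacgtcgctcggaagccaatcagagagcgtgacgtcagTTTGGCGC
CCNE1: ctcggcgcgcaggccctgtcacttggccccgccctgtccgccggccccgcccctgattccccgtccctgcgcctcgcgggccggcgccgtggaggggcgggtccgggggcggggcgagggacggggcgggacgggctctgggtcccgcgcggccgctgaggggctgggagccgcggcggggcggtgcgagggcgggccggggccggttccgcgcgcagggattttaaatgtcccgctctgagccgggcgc
SLBP: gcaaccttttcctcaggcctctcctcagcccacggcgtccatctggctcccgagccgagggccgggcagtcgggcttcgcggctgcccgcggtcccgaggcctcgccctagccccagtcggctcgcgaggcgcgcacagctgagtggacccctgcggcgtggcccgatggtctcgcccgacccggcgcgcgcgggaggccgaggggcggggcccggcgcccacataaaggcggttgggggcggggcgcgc

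The other genes of replication were read from lists of 80 genes in 5 groups: origin recognition and firing (20), polymerases, RPA, clamp loaders and ligase (21), nucleotide synthesis (8), S-phase chromatin and repair (13), and E2F, RB and CDK2 regulators (18). In KO against WT 70 of the 80 had folds below 0, with a median of -0.22, and 2 were called lower and 0 higher, against 7.15% and 6.64% of all genes. One of them was RPA1, of the single-strand binding protein, at -0.52 (SE 0.15, adjusted p = 0.0282). Without KO replicate 1, WT replicate 2 or WT replicate 3 limma called 0, with 6, 5 and 5 at an unadjusted p under 0.05, and with all libraries edgeR called 1 and DESeq2 3. With Dox against without Dox, 8 of the 80 were lower and 1 higher, against 12.9% and 12.8% of all genes, and without OE with Dox replicate 2 or OE without Dox replicate 3 these were 4 and 1. Without OE with Dox replicate 1 they were 5 and 1, and with the replicate number as a block 14 and 3. ATAD5, which unloads PCNA, averaged 201.9 ± 16.8 with Dox and 319.8 ± 14.6 without Dox (SD, n = 3 each; log2 fold -0.66, SE 0.14, adjusted p = 0.00155). POLE4, a small subunit of polymerase epsilon, went the other way, at 175.1 ± 21.1 with Dox and 79.2 ± 22.6 without Dox (log2 fold 1.16, SE 0.29, adjusted p = 0.00525).

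Among the regulators, FBXW7, which marks cyclin E for degradation, had 167.1, 150.6 and 174.2 in OE with Dox, against 410.6, 320.2 and 418.8 in OE without Dox (log2 fold -1.21, SE 0.18, adjusted p = 3.73e-05). No library with Dox came near those without it. E2F7, a repressor of the E2F family, was lower at -0.76 on the log2 scale (SE 0.18, adjusted p = 0.00317 by limma). TFDP2, a partner of E2F proteins, was lower at -0.77 (SE 0.19, adjusted p = 0.00604). CDC7, a kinase that fires origins, was lower at -0.66 (SE 0.19, adjusted p = 0.0153). In OE with Dox against WT 15 of the 80 were lower and 1 higher, against 10.1% and 10.4% of all genes, and without OE with Dox replicate 2, WT replicate 2 or WT replicate 3 the number lower was 3, 6 and 5. Between OE without Dox and WT, and between KO and OE without Dox, limma, edgeR and DESeq2 called 0 of the 80, and by limma 1 and 2 of them had an unadjusted p under 0.05.

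Of these genes outside the 36, in OE with Dox against OE without Dox, CDC7 lost its call without OE with Dox replicate 2 or OE without Dox replicate 3, and ATAD5, POLE4, FBXW7, E2F7 and TFDP2 kept theirs under every setting tried.

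Inhibitors of the cyclin-dependent kinases changed with Dox in both directions. Of the 6 tested, 2 were called higher and 3 lower than without Dox, where 12.8% and 12.9% of all genes were. Of those called, 4 are named here. CDKN2B, which binds CDK4 and CDK6, had 38.8, 108.7 and 99.5 in OE with Dox, against 3.66, 4.63 and 3.63 in OE without Dox (log2 fold 3.94, SE 0.69, adjusted p = 0.000305). Its values without Dox rest on very few reads, so the size of this fold is uncertain. CDKN1A, the p53 target p21, was also higher (log2 fold 0.80, SE 0.23, adjusted p = 0.0132), and lost this call without OE without Dox replicate 2 or 3. OE without Dox was its low group: it averaged 874 ± 259 in KO (SD, n = 5), 613 ± 27 in OE with Dox, 356 ± 82 in OE without Dox and 587 ± 61 in WT (SD, n = 3 each), and it was called higher in KO against OE without Dox too (log2 fold 1.26, SE 0.20, adjusted p = 0.00146). CDKN1B, or p27, was lower with Dox than without it at -0.73 (SE 0.13, adjusted p = 0.000278), and CDKN2C was lower at -0.98 (SE 0.23, adjusted p = 0.00308). In OE with Dox against WT, CDKN2B was called higher and CDKN1B lower, and CDKN1A and CDKN2C were not called. In KO against WT 0 of the 6 inhibitors tested were called by limma or edgeR, 1 was called by DESeq2, and 1 had an unadjusted p under 0.05 in limma.

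Markers of other cell states also differed between the groups. Of 20 G2 and mitosis markers, 9 were lower in KO than in WT and 0 higher, where 7.15% and 6.64% of all genes were, with a summed level of 14104 to 17735 in KO and 18132 to 26467 in WT, and the number was 5 without KO replicate 1 and 3 without WT replicate 2 or 3. With Dox 3 of the 20 were lower than without Dox and 0 higher, where 12.9% and 12.8% of all genes were. Without OE with Dox replicate 2 or OE without Dox replicate 3 limma called 0 of them, with 0 and 2 at an unadjusted p under 0.05, and without OE with Dox replicate 3 it called 9. Of 12 neuron markers, 10 were higher in KO than in WT, summing to 18384 to 22854 in KO and 9951 to 11564 in WT. The direction was opposite with Dox: 10 were lower and 1 higher, with sums of 6232 to 6777 in OE with Dox and 18275 to 20412 in OE without Dox. Of 10 neural progenitor markers, 7 were lower with Dox than without it and 1 higher, with a median log2 fold of -1.31 and sums of 15680 to 19070 in OE with Dox and 22933 to 24418 in OE without Dox. In KO against WT 3 of these 10 were lower and 2 higher, with sums of 19431 to 23403 in KO and 22613 to 27945 in WT. Of 10 markers of the MGE and ventral telencephalon, 9 were lower with Dox than without it, and in KO against WT 5 were higher and 1 lower. All 4 epithelial markers were higher with Dox, with sums of 314 to 735 in OE with Dox and 89.6 to 177 in OE without Dox, and 3 of the 4 were lower in KO than in WT. Mesenchyme markers, all 7 tested, summed to 1407 to 6498 in OE with Dox and 336.5 to 1768 in OE without Dox, and OE with Dox replicate 2 was the highest. With Dox 4 of the 7 were higher than without it. The part of these cell types in the levels of the 36 genes was not tested.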

How the data were processed

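Each library used 500 ng of total RNA, per the labels' protocols. The deposited values are a normalized signal, that is read counts per gene that the authors had scaled by 1 size factor per library. Tested on the values, 100.0% gave whole reads (tolerance 0.01). Tools named in the submitters' processing notes, with no roles, are HTSeq 0.9.1, TopHat2 2.1.1, DESeq2 and R 3.4.0, with build hg38. Which annotation release and strand setting were used for counting is not given in the sources used here. Of 58051 identifiers, GENCODE 44 names 56948, and it gave the gene coordinates printed here, while those of the promoter windows are from RefSeq.

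The test was run on 17102 genes that reached 10 normalized counts in 3 or more libraries. The values, with a pseudocount of 1, were taken to log2 and fitted with limma 3.58.1 (R 4.3.3): 4 groups, 14 libraries, 10 residual degrees of freedom, an intensity trend, the robust option, and two-sided tests. Between 19 pairs of libraries of the same group, squared differences exceeded counting error 3.74 to 13.8 times. No library was therefore treated as another one sequenced again. These ratios cannot show whether replicates are separate differentiations, which the labels do not state. Same-numbered libraries deviated together, with r of 0.22, 0.25 and 0.40 between OE with Dox and OE without Dox and of 0.22, 0.17 and 0.28 between OE without Dox and WT. In the other comparisons this was less clear. The r was 0.24, -0.29 and 0.13 between KO and WT, and 0.22, 0.05 and 0.10 between KO and OE without Dox. Between OE with Dox and WT it was 0.06, 0.04 and 0.25. Over the 54 pairs of libraries of different groups and different numbers the median r was -0.06.

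Other settings tried were a pseudocount of 0.5 or 5, a filter of 50 or none, scaling by TMM or the upper quartile, limma without its robust option or with quality weights, a replicate block, recovered reads in DESeq2 1.42.0 or edgeR 4.0.16, only the groups compared, and leaving out each library. The fits were tested on simulated data. The 36 genes, the other gene lists and the tests were chosen with earlier results of these data known. All 36 are named. Library values are given for those with the lowest adjusted p and the most abundant gene of each role, and at most 4 called genes of each other list are named. EXO1, E2F8 and SLBP, outside that rule, were chosen after their values were seen. Promoter windows are those of RefSeq. Plots were drawn with matplotlib 3.10.9 under Python 3.11.15, from tables made with numpy 2.4.6 and pandas 2.3.3.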

Additional observations from a re-analysis of the deposited data

Results flagged for a closer look

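CDC6, which loads the MCM helicase, had 109.9 normalized counts in KO replicate 1, far from the other KO libraries, of which the nearest had 182.2. The gap is 0.734 of the range of the 5 KO libraries, above the critical value of 0.71 for 5 samples. It was the only such case among 38 sets of values looked at: the 36 members, CTNNB1 and the median of the members. Chance gives about 1 in 20, so 1 of 38 is no larger a share than that. All sets come from the same 5 KO libraries, so they are not independent. KO replicate 1 was also the lowest KO library for 32 of the 36 genes.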

How the results depend on the processing

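The number of genes called in KO against WT was 3, and was 1 to 4 without 1 library. With the replicate number as a block it was 12, although pairing by number was unclear there (r of 0.24, -0.29 and 0.13). In OE with Dox against OE without Dox it was 3, was 1 to 5 without 1 library, and was 6 with sample quality weights and 6 with the replicate block. In OE without Dox against WT it was 0, and 1 with sample quality weights and 1 with DESeq2. In OE with Dox against WT it was 9, was 1 to 15 without 1 library, 15 with weights and 17 with the block. Same-numbered libraries of these groups had r of 0.06, 0.04 and 0.25. For the difference between the Dox and KO effects the number called was 2, and was 1 to 2 without 1 library. It was 1 with a filter of 50, 1 with no robust option and 1 with edgeR, and 5 with the block. The block left the count in the other comparisons at 0. The median fold in KO against OE without Dox ran from -0.18 to 0.016 without 1 library. Of the single folds printed for members, those whose sign turned were CDCA7 with Dox (-0.22 to 0.23), CCNE1 in KO against OE without Dox (-0.28 to 0.033) and E2F8 in OE with Dox against WT (-0.012 to 0.49), each without 1 library. The causes were not tested, except that fits without a library hold fewer samples. Over all 36 members, signs turned in at least 1 fit for 4 members in KO against WT, 11 in OE with Dox against OE without Dox, 8 in OE without Dox against WT, 3 in OE with Dox against WT and 19 in KO against OE without Dox. The medians of the other 4 pairs of groups kept their sign in every fit, while that of the difference between the Dox and KO effects, 0.036, was -0.113 to 0.167 without 1 library, and below 0 with TMM or upper-quartile scaling, weights, edgeR and DESeq2. Chosen after seeing the data, the count of 26 genes with r of at least 0.8 was tried under other pseudocounts, scalings and without each library, and was 21 to 29. Depth limits the genes of few reads, such as CCNE1, CCNE2, E2F8 and TIPIN, more than the others.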
